A study of Mus musculus with 12 samples.

Results

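Messenger RNA levels of 69 Golgi glycosyltransferase and nucleotide sugar transporter genes were measured in cultured mouse cortical glia after 60 min of thapsigargin or of calcium-free medium. The genes were taken by name and abundance. They were the protein-coding genes whose symbols begin with Galnt, B4galt, B3galt, St3gal, St6gal, St8sia or Slc35 and that held at least 120 counts over the 12 libraries. Of 43322 genes in the table, 79 carried such a symbol and a protein-coding label, and 69 of these reached the minimum. They comprised 16 Galnt, 7 B4galt, 5 B3galt, 6 St3gal, 7 St6gal and St6galnac, 4 St8sia and 24 Slc35 genes. Galnt6, at 206 counts in all, was the scarcest gene inside the minimum. Slc35d3, at 102 counts, was the most abundant outside it.

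The cells were primary glial cultures from the cortex of wild-type CD1 mice of postnatal days 3 to 5, and the submitters label them as cultured astrocytes. A preparation started from the frontal cortices of a single mouse, was grown with serum, B27 and 10 ng/ml EGF, and was replated before use. In the first group, cells received 3 µM thapsigargin for 60 min. Thapsigargin blocks the SERCA pumps, which load the endoplasmic reticulum (ER) with calcium. In another group, cells were kept for 60 min in medium without calcium, with the calcium chelator EGTA. Control cells received vehicle. Each group held 4 libraries, described in the series text as biological replicates, without saying whether each came from a different mouse. Serum, B27 and EGF were part of the culture protocol of all groups, and neither the vehicle nor the EGTA concentration is named in the labels.

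Proteins and lipids that leave the ER receive most of their sugars in the Golgi apparatus. Glycosyltransferases of the Galnt family attach the first N-acetylgalactosamine of mucin-type O-glycans to serine and threonine. The B4galt and B3galt families add galactose, and the St3gal, St6gal, St6galnac and St8sia families cap chains with sialic acid. The donor sugars are made as nucleotide conjugates in the cytosol or nucleus, and Slc35 proteins carry them across the membrane into the Golgi or ER lumen. In brain these enzymes build the gangliosides, sialic acid-bearing glycolipids of the plasma membrane, and the glycans of adhesion molecules and proteoglycans. Many of these transferases need divalent cations, and the Golgi lumen is itself a calcium store.

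The libraries held 36.2 to 42.6 M counts, and 17077 genes entered the test. Of the astrocyte markers, Slc1a3, Gfap and Aqp4 averaged 2638, 1359 and 920.0 CPM in control cultures (CPM, counts per 1 M counts of the library). Olig1 averaged 1329 CPM, Col1a2 661 CPM, Mki67 329.9 CPM and Stmn2 149.8 CPM, so the cultures also expressed markers listed for other cells. Within the same lists, Sox10, Mog, Rbfox3, Slc17a7 and Cldn5 were at or near 0, with means of 0.00596 to 0.150 CPM. Yet 7 of 9 oligodendrocyte lineage, 7 of 9 neuron and 8 of 9 vascular and fibroblast markers entered the test. In control these lists summed to means of 1840, 418 and 1178 CPM. The libraries numbered 4 differed from all others. They held 588 to 740 CPM of Xist, which silences an X chromosome in female cells, against at most 0.319 CPM in the other 9. Summed over the Y-linked genes Ddx3y, Eif2s3y, Kdm5d and Uty, they held at most 0.215 CPM, against 198 to 221 CPM in the others. The summed vascular and fibroblast markers were at 371 to 563 CPM in replicate 4 and at 1167 to 1526 CPM elsewhere.

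Levels of these genes in control cells spanned a wide range. Counts were divided by the exon length of each gene, since levels of different genes can be compared only per length. On this scale 28 of the 69 had 10 CPM per kb or more in control and 12 had less than 1. The highest were Slc35b1 at 53.2 CPM per kb and Galnt18 at 50.1 CPM per kb. Slc35b1 is an ER carrier that has been described as an ATP transporter, and Galnt18 is a less studied Galnt paralog. Galnt2 and Galnt1, broadly acting initiators of O-glycans, followed at 48.2 and 41.6 CPM per kb, and Slc35f1, a carrier without an assigned substrate, stood at 39.4 CPM per kb.

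The families differed in how their levels were spread. The 7 B4galt genes lay within 5.69 to 17.7 CPM per kb, with B4galt3 and B4galt4, which galactosylate N-acetylglucosamine ends, the highest. The 5 B3galt genes lay within 0.695 to 4.12 CPM per kb, led by B3galt6, which adds a galactose to the linker of glycosaminoglycan chains, and B3galt1. The 16 Galnt genes ran from 0.0524 to 50.1 CPM per kb, and 7 of them were under 1. Among the sialyltransferases, St6galnac5, an enzyme of alpha-series gangliosides, had 23.9 CPM per kb and its paralog St6galnac6 had 17.4 CPM per kb. St3gal2 and St3gal3, which add sialic acid to galactose on gangliosides and glycoproteins, had 14.2 and 11.7 CPM per kb. Of the St8sia genes, St8sia2, a polysialic acid synthase of NCAM, had 6.50 CPM per kb, St8sia1, the GD3 synthase, had 1.37 CPM per kb, and St8sia4, the other polysialic acid synthase, had 0.0370 CPM per kb.

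**Figure D1:**
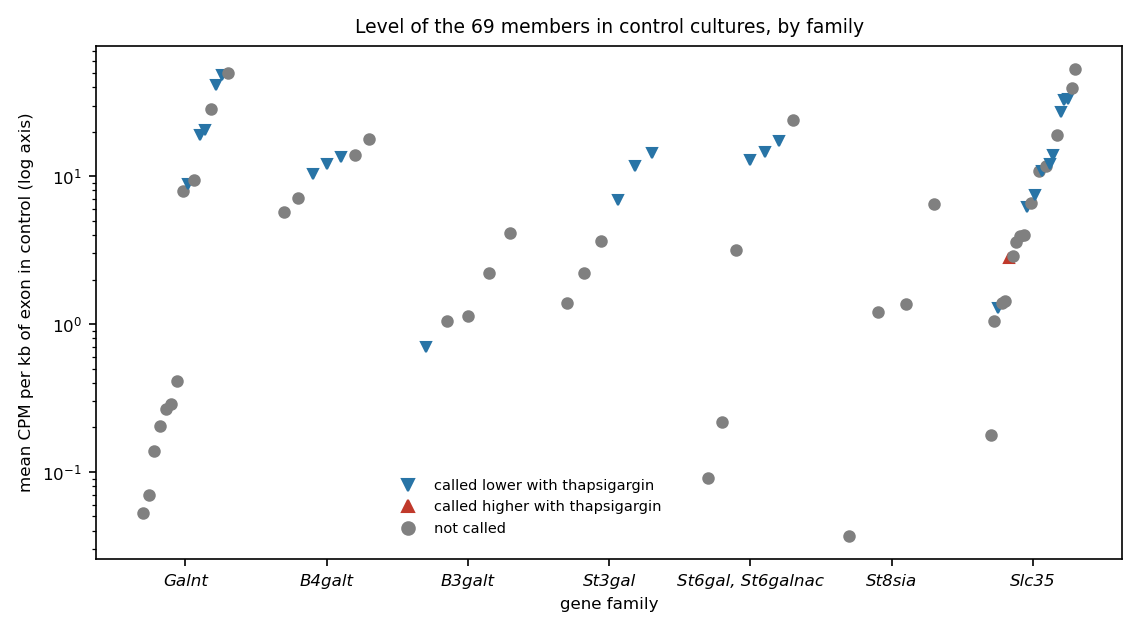
Mean level of each of the 69 genes in control cultures, in CPM per kb of exon on a log axis, by gene family, with genes in ascending order within a family; down triangles mark genes lower with thapsigargin at an adjusted p under 0.05, the up triangle the gene that was higher, and circles the rest. The B4galt genes sit between 5.69 and 17.7 CPM per kb, and the Galnt genes spread from 0.0524 to 50.1 CPM per kb.

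Thapsigargin lowered 24 of the 69 genes and raised 1 relative to control (edgeR quasi-likelihood test, Benjamini-Hochberg adjusted p under 0.05 over all genes). Over all 17077 genes tested, 14.8% were called lower and 16.4% were called higher in this comparison. The members called lower made up 34.8% of the set and the member called higher 1.45%. The median log2 fold change was -0.13 over the 69 genes and -0.047 over all genes tested. Of the 44 genes that were not called, 32 had a log2 fold change below 0 and 12 above it. The summed level of the set was 2550 ± 29.0 CPM with thapsigargin and 2911 ± 54.1 CPM in control (SD, n = 4 each), and the thapsigargin libraries, at 2507 to 2570 CPM, lay below all control libraries, at 2831 to 2951 CPM. In bulk RNA, a lower share of the cells that express a gene and less RNA per cell cannot be told apart.

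Most of the decreases were small. The 24 log2 fold changes ran from -1.23 to -0.13 with a median of -0.24, and 4 genes fell by more than 1.5-fold: B4galt5, Slc35d1, Slc35b4 and B3galt2. In all 24 the thapsigargin library was below the control library of the same replicate number, for each of the 4 numbers. The 24 genes were picked by a test on these same libraries, so this order adds no support. Called or not, 24 of the 69 genes had every thapsigargin library below every control library, against 15.1% of all genes tested, and 22 of these 24 were called. Calls were more frequent among abundant genes. Among the 18 genes averaging 50 CPM or more, 12 were lower, against 30.5% of all tested genes at that level. Of the 34 genes between 10 and 50 CPM, 11 were lower (14.5% of all genes at that level), of the 10 between 1 and 10 CPM 1 was lower (5.44%), and of the 7 under 1 CPM 0 were lower (1.76%). The median SE of a log2 fold change was 0.046 in the most abundant class and 0.22 in the scarcest.

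**Figure D2:**
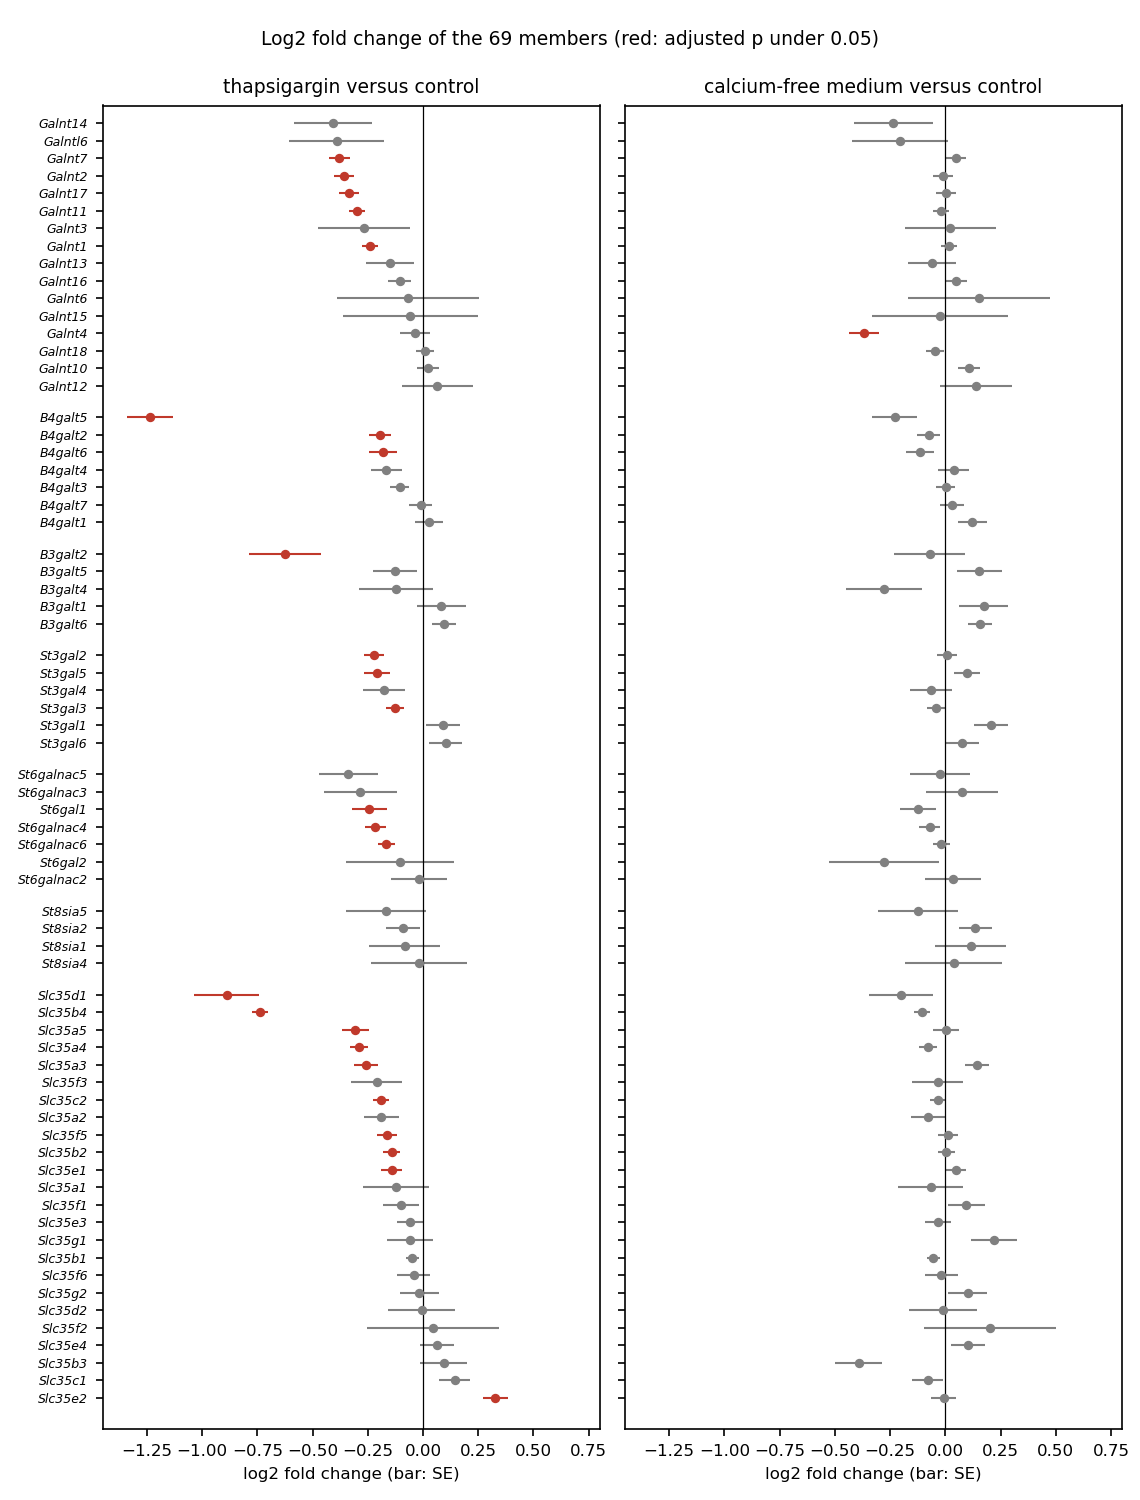
Log2 fold change (point) and its SE (bar) of each of the 69 genes for thapsigargin versus control (left) and calcium-free medium versus control (right), a line for each gene, grouped by family and ordered by the thapsigargin value; red marks an adjusted p under 0.05. On the left 24 red points lie below 0 and 1 above, and on the right Galnt4 is the red point.

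B4galt5 changed most. It encodes a lactosylceramide synthase, which adds the galactose that begins most gangliosides (gene 56336, GRCm39 chromosome 2, 167140364 to 167191155, minus strand). Its level was 21.1, 20.6, 22.0 and 24.1 CPM in thapsigargin libraries 1 to 4, against 49.0, 46.0, 49.6 and 62.1 CPM in control libraries 1 to 4. Every thapsigargin library was below every control library, and replicate 4 was the highest of both groups. The log2 fold change was -1.23 ± 0.10 (SE, adjusted p = 4.64e-06), a level that fell by 57.5%. B4galt6, the other lactosylceramide synthase gene, was at 55.5 ± 1.29 CPM with thapsigargin and 62.9 ± 5.36 CPM in control (SD, n = 4 each). Its log2 fold change was -0.18 ± 0.064 at an adjusted p of 0.0495, close to the threshold. Leaving out a single library ended the B4galt6 call in 10 of 12 cases, the exceptions being the control and calcium-free libraries numbered 4 (adjusted p from 0.0523 to 0.157), and DESeq2 did not make it (0.0551).

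Slc35d1 and Slc35b4 fell most among the transporters. Slc35d1, an ER carrier of UDP-glucuronic acid and UDP-N-acetylgalactosamine that cartilage needs for chondroitin sulfate (gene 242585, GRCm39 chromosome 4, 103027846 to 103078208, minus strand), was at 8.34, 8.73, 8.93 and 12.1 CPM with thapsigargin and at 16.2, 16.5, 15.7 and 22.2 CPM in control. The groups did not overlap, and replicate 4 was again the highest of each. The log2 fold change was -0.89 ± 0.15 (adjusted p = 0.000584). Slc35b4, a carrier of UDP-xylose and UDP-N-acetylglucosamine (gene 58246, GRCm39 chromosome 6, 34132810 to 34153921, minus strand), was at 61.2, 63.3, 61.6 and 58.4 CPM with thapsigargin and at 103, 103, 102 and 100.3 CPM in control. The 4 libraries of each group lay close together, and the gap between the groups was several times their spread. Slc35b4 had the smallest p of the set, with a log2 fold change of -0.74 ± 0.036 (adjusted p = 1.64e-07).

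B3galt2, which adds galactose to N-acetylglucosamine to form type I chains (gene 26878, GRCm39 chromosome 1, 143516435 to 143525675, plus strand), was scarce. It was at 2.60, 2.19, 1.75 and 1.71 CPM with thapsigargin and at 3.42, 3.03, 3.29 and 2.98 CPM in control, without overlap, and its log2 fold change was -0.62 ± 0.16 (adjusted p = 0.0114). B3galt2 lies wholly within Cdc73, on the opposite strand, a gene at 57.4 CPM whose log2 fold change was 0.28, and the strand setting of the counting is not given in the sources used here, so its value is uncertain.

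**Figure D3:**
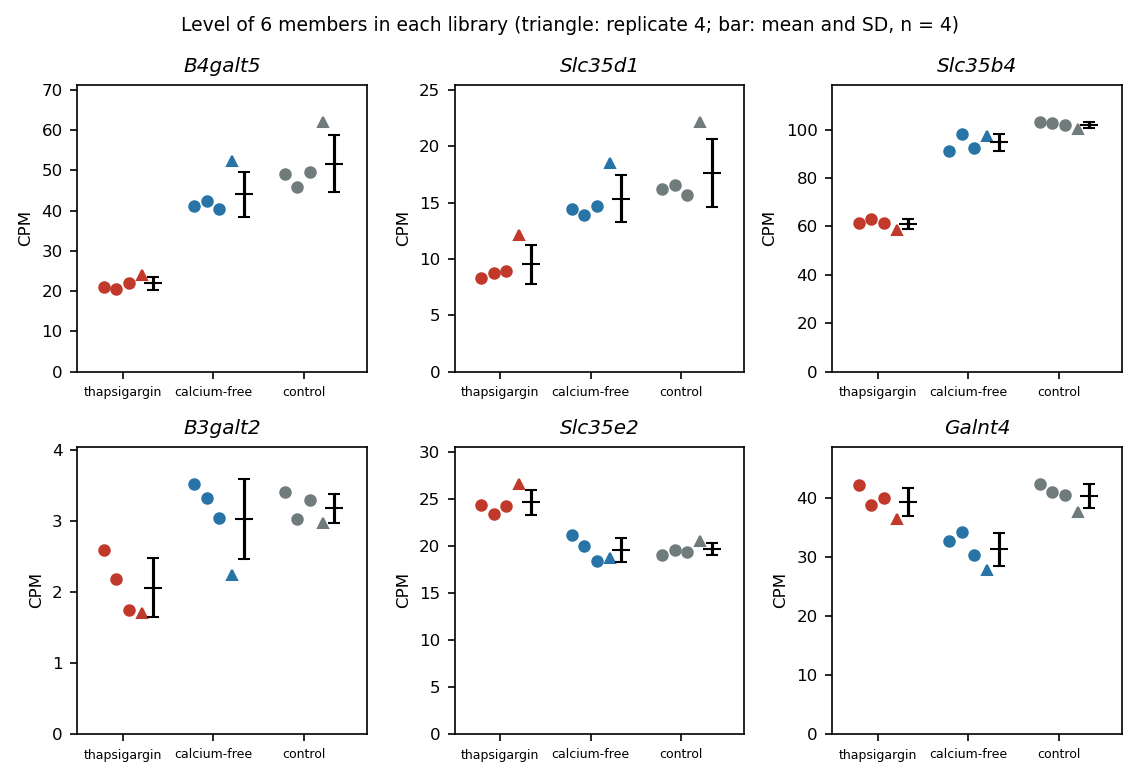
Level in CPM of B4galt5, Slc35d1, Slc35b4, B3galt2, Slc35e2 and Galnt4 in each library, with thapsigargin, calcium-free medium and control from left to right; circles are replicates 1 to 3, triangles replicate 4, and the bar beside them the mean and SD (n = 4). B4galt5 lies at 20.6 to 24.1 CPM with thapsigargin and at 46.0 CPM or more in control, and Galnt4 is lowest in calcium-free medium.

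The promoter windows of these 4 genes are shown because they are the ones that fell by more than 1.5-fold. Each runs from 250 bases before to 50 after the annotated start of transcription, 5′ to 3′ on the gene's strand, from RefSeq annotation of GRCm38.p6, an older build than the one of the counts. They differ widely in base composition, with 75.0% G and C in B4galt5 (chr2:167349129-167349428, minus strand), 75.3% in Slc35d1 (chr4:103215127-103215426, minus strand), 51.3% in Slc35b4 (chr6:34177005-34177304, minus strand) and 37.7% in B3galt2 (chr1:143640447-143640746, plus strand). Capitals mark the match to a searched motif, the EGR site GCGNGGGCG read on the opposite strand of the B4galt5 window. The other 3 windows held no match to the 7 motifs described further on.
B4galt5: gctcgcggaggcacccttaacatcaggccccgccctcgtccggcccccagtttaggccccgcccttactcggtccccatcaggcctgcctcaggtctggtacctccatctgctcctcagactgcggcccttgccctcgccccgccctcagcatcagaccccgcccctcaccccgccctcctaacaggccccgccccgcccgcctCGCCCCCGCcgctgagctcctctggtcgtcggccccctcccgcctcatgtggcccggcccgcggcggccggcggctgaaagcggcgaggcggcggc
Slc35d1: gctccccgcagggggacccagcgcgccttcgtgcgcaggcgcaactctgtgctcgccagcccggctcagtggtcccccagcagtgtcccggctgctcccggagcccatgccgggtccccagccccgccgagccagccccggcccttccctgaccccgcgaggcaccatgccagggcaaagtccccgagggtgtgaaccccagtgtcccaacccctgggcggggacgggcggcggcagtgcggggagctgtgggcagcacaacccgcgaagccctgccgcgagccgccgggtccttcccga
Slc35b4: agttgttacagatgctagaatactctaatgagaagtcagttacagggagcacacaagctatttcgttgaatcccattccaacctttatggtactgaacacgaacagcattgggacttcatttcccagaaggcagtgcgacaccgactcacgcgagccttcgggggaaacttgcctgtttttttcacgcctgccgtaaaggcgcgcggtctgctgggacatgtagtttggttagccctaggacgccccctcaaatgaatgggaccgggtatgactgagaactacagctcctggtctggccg
B3galt2: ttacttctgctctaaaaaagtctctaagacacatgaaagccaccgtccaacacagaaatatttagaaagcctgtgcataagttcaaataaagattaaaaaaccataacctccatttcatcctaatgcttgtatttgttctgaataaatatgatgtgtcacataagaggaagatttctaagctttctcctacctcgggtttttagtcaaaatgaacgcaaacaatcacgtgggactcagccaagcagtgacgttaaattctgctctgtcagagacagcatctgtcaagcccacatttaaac

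Among the Galnt genes, 5 of 16 were lower and 0 higher with thapsigargin, where 14.8% of all genes were lower and 16.4% higher. Galnt2 and Galnt1 had the highest CPM of the family. Galnt2 was at 160.2, 156, 156 and 147 CPM with thapsigargin and at 197, 203, 206 and 187 CPM in control, a log2 fold change of -0.36 ± 0.044 (adjusted p = 7.31e-05). Galnt1 was at 158, 155, 155 and 147 CPM with thapsigargin and at 183, 187, 179.9 and 176 CPM in control, a log2 fold change of -0.24 ± 0.037 (adjusted p = 0.000357). All 4 thapsigargin libraries of both genes were below all 4 control libraries. The others were Galnt7, which prefers peptides that already carry N-acetylgalactosamine, at -0.38 ± 0.047 (7.81e-05), Galnt17, a brain-enriched paralog, at -0.34 ± 0.046 (0.000154), and Galnt11, known for O-glycosylation of Notch and of LDL receptor family proteins, at -0.30 ± 0.036 (5.66e-05), each a log2 fold change with SE and adjusted p. In contrast, Galnt18, the most abundant of the family per length, was at 136, 136, 139 and 128 CPM with thapsigargin and at 137, 134, 139 and 126 CPM in control, and the groups overlapped fully (0.0095 ± 0.041, adjusted p = 0.893). Galnt4 (log2 fold change -0.037) and Galnt10 (0.021), which like Galnt7 act on partly glycosylated peptides, were also not called. The replicate block, a term for the library number in the model, called Galnt14 (adjusted p = 0.0046) and Galnt16 (0.0137) lower as well.

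Over all genes, 14.8% were lower and 16.4% higher with thapsigargin. Of the galactosyltransferases, 3 of 7 B4galt genes (42.9%) and 1 of 5 B3galt genes (20%) were lower, and 0 were higher. Besides B4galt5 and B4galt6 this was B4galt2, an enzyme of N-glycan galactosylation, at 48.8 ± 2.68 CPM with thapsigargin and 55.9 ± 2.09 CPM in control (SD, n = 4 each), a log2 fold change of -0.19 ± 0.051 (adjusted p = 0.0114). B4galt1, whose product forms lactose synthase with alpha-lactalbumin, had a log2 fold change of 0.025 ± 0.064 (adjusted p = 0.812). The galactosyltransferases of the glycosaminoglycan linker, B4galt7 and B3galt6, were at -0.011 ± 0.054 and 0.094 ± 0.055 (adjusted p = 0.905 and 0.231). B4galt3 and B4galt4 were at -0.11 ± 0.043 and -0.17 ± 0.071 (adjusted p = 0.0863 and 0.099), and the fit with the replicate block called both lower (0.0376 and 0.00181). B3galt4, which makes GM1, and B3galt5 and B3galt1, which form type I chains, were at log2 fold changes of -0.12, -0.13 and 0.082, none called.

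Of the sialyltransferases, 3 of 6 St3gal genes and 3 of 7 St6gal and St6galnac genes were lower, and 0 were higher. The shares over all genes were 14.8% lower and 16.4% higher. St3gal2 was at 96.2, 95.0, 93.3 and 95.8 CPM with thapsigargin and at 111, 109, 114 and 109.6 CPM in control, with no overlap and a log2 fold change of -0.22 ± 0.047 (adjusted p = 0.00315). St3gal5, the GM3 synthase that acts on the product of B4galt5, was at 26.7, 25.4, 26.0 and 24.9 CPM with thapsigargin and at 29.8, 30.9, 31.4 and 27.1 CPM in control. Its highest thapsigargin library lay just below its lowest control library, and its log2 fold change was -0.21 ± 0.060 (adjusted p = 0.0182, 0.0569 without control replicate 2 and 0.0585 without control replicate 3). St3gal3 was at -0.13 ± 0.039 (adjusted p = 0.0279), and it was not called without any 1 of replicates 1 to 3 of thapsigargin or control (0.0509 to 0.0887). St6gal1, which adds sialic acid to N-glycans, was at 64.1 ± 5.00 CPM with thapsigargin and 75.8 ± 6.41 CPM in control (SD, n = 4 each). Its log2 fold change was -0.24 ± 0.080 (adjusted p = 0.0361), and the call was lost without control 1, 2 or 3 or thapsigargin 1, 3 or 4 (0.0552 to 0.0979).

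The neighbouring genes St6galnac4 and St6galnac6, only 10 bases apart on chromosome 2, both fell. Both had counts that were not whole in 10 of the 12 libraries, so how reads were divided between features bears on their values. St6galnac4, which sialylates the core of O-glycans, was at -0.22 ± 0.048 (adjusted p = 0.00433), and St6galnac6, of the alpha-series gangliosides, at -0.17 ± 0.038 (0.00527). St6galnac6 was at 41.5, 41.9, 42.0 and 41.6 CPM with thapsigargin and at 46.8, 45.7, 49.7 and 45.2 CPM in control, with narrow and separate groups. St6galnac5 was at 50.5, 46.2, 51.7 and 65.3 CPM with thapsigargin and at 65.3, 63.9, 60.5 and 80.3 CPM in control. Replicate 4 was far above the others in both groups, and within replicates 1 to 3 the groups did not overlap. Its log2 fold change of -0.34 ± 0.14 was not called at an adjusted p of 0.0789, but was with the replicate block (1.48e-06) and without the libraries numbered 4 (2.53e-05). It overlaps Pigk on the opposite strand, at 63.8 CPM and a log2 fold change of -0.52, so its value is uncertain without the strand setting. The 4 St8sia genes had 0 called in edgeR, 0 in DESeq2 and 0 at an unadjusted p under 0.05, with log2 fold changes from -0.17 to -0.016, and St8sia1 and St8sia2 were at -0.084 ± 0.16 and -0.090 ± 0.075. St3gal4 (0.00315) and St6galnac3 (0.0115), enzymes of terminal N-acetyllactosamine and of disialylated O-glycans, were called lower with the block, values being adjusted p.

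Of the 24 Slc35 genes, 9 were lower and 1 higher, against 14.8% and 16.4% of all genes. Besides Slc35d1 and Slc35b4, the lower ones included Slc35a3, a UDP-N-acetylglucosamine carrier, at 29.8, 31.4, 32.7 and 30.0 CPM with thapsigargin and at 39.1, 38.6, 35.3 and 35.2 CPM in control (-0.26 ± 0.054, adjusted p = 0.00294). Slc35a4, proposed from human cells as a CDP-ribitol carrier, was at 79.2, 78.3, 74.2 and 80.9 CPM with thapsigargin and at 94.3, 95.4, 96.0 and 95.9 CPM in control (-0.29 ± 0.041, adjusted p = 0.000199). In both genes all thapsigargin libraries were below all control libraries. Slc35a4 overlaps Apbb3 on the opposite strand by 152 bases, a gene at 15.0 CPM with a log2 fold change of 0.28, so its value is uncertain to that extent. Slc35a5, a paralog of the nucleotide sugar carriers, was at -0.31 ± 0.060 (0.00188), and Slc35c2, linked to fucosylation of Notch, at -0.19 ± 0.036 (0.00169). Slc35b2, which carries the sulfate donor PAPS, was at -0.14 ± 0.039 (0.0158, and 0.0519 and 0.0563 without thapsigargin 2 or 3). Slc35f5 and Slc35e1, without an assigned substrate in the Golgi, were at -0.16 ± 0.045 (0.0164, and 0.0502 without thapsigargin 1) and -0.14 ± 0.047 (0.0404). The Slc35e1 call ended on leaving out each of 9 libraries singly (0.0532 to 0.115), and held without thapsigargin 4, calcium-free 1 or calcium-free 4.

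The carriers of CMP-sialic acid and UDP-galactose, the donors of the sialyl- and galactosyltransferases, were not called. Slc35a1, the first of these carriers, was at 23.2, 22.2, 22.4 and 32.2 CPM with thapsigargin and at 26.2, 24.0, 24.7 and 33.9 CPM in control, with overlapping groups and a high replicate 4 in each (-0.12 ± 0.15, adjusted p = 0.591). Slc35a2, the carrier of UDP-galactose, was at 29.7, 32.0, 33.1 and 27.2 CPM with thapsigargin and at 34.5, 37.4, 36.6 and 30.4 CPM in control (-0.19 ± 0.078, adjusted p = 0.0881). The replicate block called both lower (adjusted p = 0.0162 and 0.000416), as well as Slc35f1 (0.0178) and Slc35f3 (0.00349). Slc35b1, the most abundant gene of the set per length, was at 69.8 ± 1.24 CPM with thapsigargin and 72.2 ± 1.63 CPM in control (SD, n = 4 each) and was not called (-0.049 ± 0.030, adjusted p = 0.249).

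Slc35e2, a carrier without an assigned substrate (gene 320541, GRCm39 chromosome 4, 155685873 to 155707797, plus strand), was the gene that rose. It was at 24.4, 23.5, 24.3 and 26.6 CPM with thapsigargin and at 19.1, 19.6, 19.4 and 20.6 CPM in control. All thapsigargin libraries were above all control libraries, as they were for 16.7% of all genes, and the log2 fold change was 0.33 ± 0.056 (adjusted p = 0.000835). Its counts were not whole numbers in any of the 12 libraries, as when reads are divided between features, so its level is uncertain. The same held for the counts of Galnt11, B4galt1 and Slc35f3, and in 11 of 12 libraries for B4galt7, Slc35e1, Slc35e3 and St8sia1. Slc35c1, the GDP-fucose carrier, was at 0.14 ± 0.071 and was called higher with the block (adjusted p = 0.0397) and without the libraries numbered 4 (0.00534), where St3gal1, which caps O-glycans, was also higher (0.0491). In all, the block gave 35 lower and 2 higher of the 69 genes, where 28.2% and 23% of all genes were called. Without the libraries numbered 4 there were 31 lower and 3 higher, against 21.2% and 24.4% of all genes. This added B4galt4, Galnt14, Slc35a2, Slc35f3, St3gal4, St6galnac3 and St6galnac5 to the lower genes, and both settings kept all 25 calls. Without a filter on low counts, B4galt6, Slc35b2, Slc35e1, Slc35f5, St3gal3, St3gal5 and St6gal1 were not called (adjusted p from 0.0668 to 0.238).

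Most calls in lists of other glycan synthesis genes, none of them in the set, were also lower. Over all genes tested, 14.8% were lower and 16.4% higher, with a median log2 fold change of -0.047. Of 14 genes of N-glycan processing in the Golgi, 9 were lower with thapsigargin and 0 higher, with a median log2 fold change of -0.27. Man2a2 and Man1a2, mannosidases that trim N-glycans, were at -0.39 ± 0.054 and -0.27 ± 0.040 (adjusted p = 0.000156 and 0.00025). Of 17 genes of glycosaminoglycan linkers and chains, 9 were lower and 0 higher, with Xylt2, which starts the linker with xylose, at -0.45 ± 0.055 (7.11e-05) and Extl2, an exostosin-like transferase, at -0.36 ± 0.040 (2.94e-05). Of 12 genes of O-mannose and dystroglycan glycosylation, 5 were lower and 0 higher, among them Pomgnt1, which extends O-mannose with N-acetylglucosamine, at -0.29 ± 0.032 (3.66e-05). Of 27 nucleotide sugar synthesis genes, 10 were lower and 2 higher, with the N-acetylgalactosamine kinase gene Galk2 at -0.26 ± 0.043 (0.000698) and Fpgt, which makes GDP-fucose from salvaged fucose, at 0.35 ± 0.055 (0.000423).

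The smaller lists held fewer genes, and the shares over all genes were again 14.8% lower and 16.4% higher. Of 8 genes of O-GalNAc core extension, 2 were lower and 0 higher, with C1galt1c1, the chaperone of the core galactosyltransferase, at -0.28 ± 0.056 (0.00247). Gcnt4, a branching enzyme, was at 0.022 ± 0.091 and not called (0.887). Of 7 genes of glycosphingolipid synthesis, 2 were lower and 0 higher. Ugt8a, which makes galactosylceramide, was at 1.58, 1.87, 1.66 and 1.78 CPM with thapsigargin and at 3.24, 3.11, 3.27 and 3.15 CPM in control, a separation of all libraries with a log2 fold change of -0.89 ± 0.11 (6.04e-05), while B3galnt1, the globoside synthase, was at -0.17 ± 0.065 (0.0743, and 0.00946 with the block). Of 3 sialidase and sialic acid esterase genes, the esterase gene Siae was lower at -0.34 ± 0.047 (0.000199) and the ganglioside sialidase gene Neu3 higher at 0.25 ± 0.084 (0.0395). The Neu3 call ended on leaving out library 1 or 4 of control, 1, 2 or 4 of thapsigargin, or 2 or 3 of calcium-free medium (0.0505 to 0.0823), and under upper quartile scaling (0.0623).

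The list of Golgi structure and ion homeostasis differed in direction. Of its 24 genes, 8 were higher (33.3%) and 5 lower (20.8%), with a median log2 fold change of 0.077. Over all genes, 16.4% were higher and 14.8% lower. Cog8, a subunit of the tethering complex that recycles Golgi enzymes, was at 25.9, 23.9, 23.3 and 28.2 CPM with thapsigargin and at 15.6, 16.2, 16.8 and 16.8 CPM in control, a log2 fold change of 0.63 ± 0.064 (adjusted p = 1.77e-05). Tmem165, a Golgi membrane protein for manganese and calcium whose loss in humans impairs glycosylation, was at 45.8, 48.5, 46.8 and 47.4 CPM with thapsigargin and at 72.9, 68.8, 70.7 and 68.3 CPM in control, a log2 fold change of -0.57 ± 0.036 (7.23e-07). In both genes the groups were well separated and in opposite directions. With the replicate block, 13 genes of N-glycan processing, 14 of glycosaminoglycan synthesis, 15 of nucleotide sugar synthesis, 5 of O-GalNAc extension, 5 of glycosphingolipid synthesis and 6 of O-mannose glycosylation were lower. The block also called 12 genes of Golgi structure higher and 6 lower, 5 genes of nucleotide sugar synthesis higher, and 2 of O-mannose glycosylation higher. Over all genes, the block called 28.2% lower and 23% higher. The lower genes of Golgi structure and the higher ones of nucleotide sugar synthesis and O-mannose glycosylation did not exceed these shares. Without the libraries numbered 4, 11 genes of N-glycan processing, 12 of glycosaminoglycan synthesis, 11 of nucleotide sugar synthesis, 3 of O-GalNAc extension, 4 of glycosphingolipid synthesis and 6 of O-mannose glycosylation were lower. In that setting 13 genes of Golgi structure, 4 of nucleotide sugar synthesis, 3 of O-mannose glycosylation, 1 of O-GalNAc extension and 1 of glycosphingolipid synthesis were higher. Without these libraries, 21.2% of all genes were lower and 24.4% higher.

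**Figure D4:**
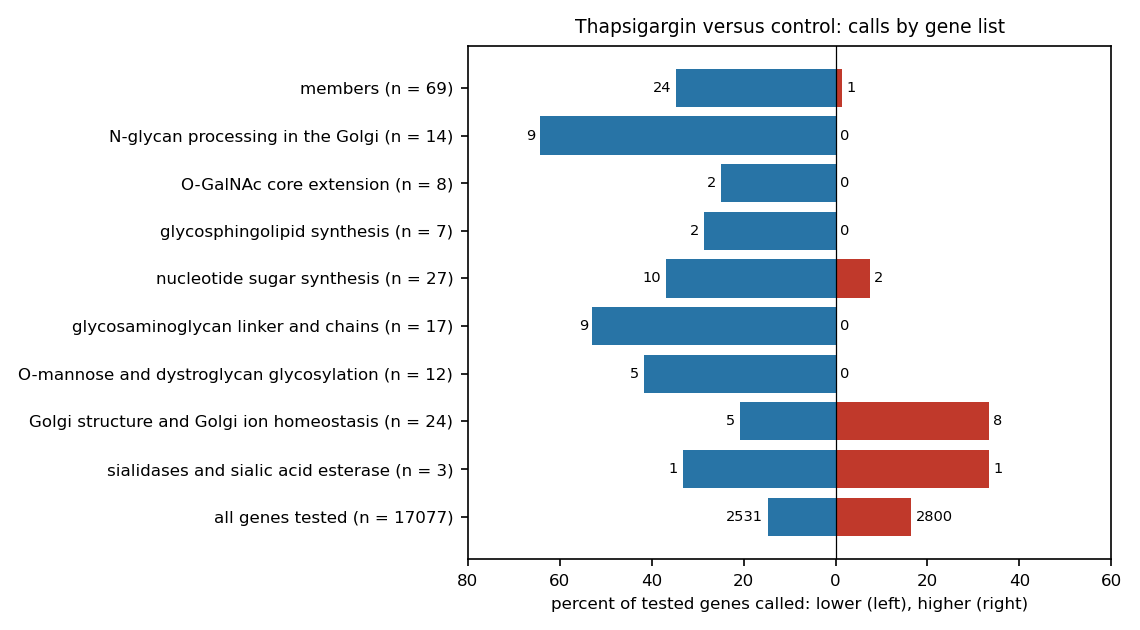
Percent of the tested genes of each list called lower (blue, left of 0) and higher (red, right of 0) with thapsigargin versus control, with the number of genes at the bar ends. The 69 genes of the set have 24 lower and 1 higher, the list of Golgi structure and ion homeostasis 5 lower and 8 higher, and all 17077 genes tested 2531 lower and 2800 higher.

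Markers of the cell types in the cultures had calls as well, where 14.8% of all genes tested were lower and 16.4% higher. Of 10 astrocyte markers, 3 were lower and 1 higher with thapsigargin, and their summed level was 5694 to 6891 CPM with thapsigargin and 6500 to 7729 CPM in control. Of 9 microglia markers, 2 were lower and 0 higher, with sums of 71.5 to 105 CPM with thapsigargin and 88.5 to 141 CPM in control. Oligodendrocyte lineage and neuron markers each had 1 of 7 lower and 1 higher, proliferation markers 1 of 7 lower and 0 higher, and vascular cell and fibroblast markers 0 of 8 called (0 at an unadjusted p under 0.05). With the replicate block, 8 astrocyte, 9 microglia, 4 oligodendrocyte lineage, 2 neuron, 2 vascular and fibroblast and 3 proliferation markers were lower. The block also called 1 each of the astrocyte, oligodendrocyte lineage and neuron markers higher. Over all genes, 28.2% were lower and 23% higher in that fit. Without the libraries numbered 4, these lists had 8, 6, 3, 2, 2 and 3 lower in the same order, against 21.2% of all genes. In that setting 1 each of the astrocyte, oligodendrocyte lineage, neuron and proliferation markers was higher, against 24.4% of all genes. Proliferation markers summed to 1577 to 2005 CPM with thapsigargin and 1630.1 to 2223 CPM in control, and neuron markers to 352 to 391 CPM with thapsigargin and 398 to 429.9 CPM in control. Oligodendrocyte lineage markers summed to 1641 to 1989.9 CPM with thapsigargin and 1786 to 1909.6 CPM in control, and vascular cell and fibroblast markers to 371 to 1224 CPM with thapsigargin and 521 to 1439.8 CPM in control. The part of these markers in the change of the glycosylation genes was not tested.

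In calcium-free medium Galnt4 was called lower, 1.45% of the set, and 0 genes were called higher in edgeR (2 lower and 0 higher in DESeq2). Of all genes, 1.55% were called lower and 3.78% higher (70.9% of these calls were higher under TMM scaling, and 58.5% under upper quartile scaling). The median log2 fold change of the 69 genes was -0.0074, and 7 of them had an unadjusted p under 0.05. All libraries of both groups were separated for 3 lower genes and 1 higher gene of the set, against 4.44% and 6.05% of all genes. The replicate block called 6 lower and 8 higher, against 7.01% and 10.4% of all genes. The summed level of the set was 2900 ± 71.1 CPM in calcium-free medium and 2911 ± 54.1 CPM in control (SD, n = 4 each).

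Galnt4 (gene 14426, GRCm39 chromosome 10, 98943997 to 98949109, plus strand) was at 32.7, 34.3, 30.4 and 27.8 CPM in calcium-free medium and at 42.4, 41.0, 40.5 and 37.6 CPM in control. Every calcium-free library was below every control library, and the log2 fold change was -0.37 ± 0.068 (edgeR adjusted p = 0.00963). Galnt4 lies within Poc1b, a centriole gene on the same strand, so reads of the 2 genes may be hard to assign. Poc1b itself was at a log2 fold change of 0.0050 in calcium-free medium (adjusted p = 0.993). Slc35b3, a PAPS carrier of the Golgi, was at 11.70, 9.26, 7.66 and 9.99 CPM in calcium-free medium and at 12.66, 11.98, 12.87 and 13.16 CPM in control. All calcium-free libraries were below all control libraries, but they spread widely, and the log2 fold change of -0.39 ± 0.11 missed the threshold (adjusted p = 0.0557). It was called with the replicate block (0.0285), in DESeq2, and without calcium-free replicate 1.

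The genes that fell most with thapsigargin had smaller differences in calcium-free medium. B4galt5 was at 41.1, 42.3, 40.5 and 52.4 CPM in calcium-free medium and at 49.0, 46.0, 49.6 and 62.1 CPM in control (-0.23 ± 0.10, adjusted p = 0.27). Slc35d1 was at 14.4, 13.9, 14.7 and 18.5 CPM in calcium-free medium and at 16.2, 16.5, 15.7 and 22.2 CPM in control (-0.20 ± 0.14, 0.574). Slc35b4 was at 91.2, 98.1, 92.5 and 97.2 CPM in calcium-free medium and at 103, 103, 102 and 100.3 CPM in control (-0.11 ± 0.036, 0.118). In each of the 3 genes every calcium-free library was below its same-numbered control library, and the groups of Slc35b4 did not overlap. These genes were picked for a fall against the same control libraries, so this order adds no support. With the replicate block all 3 were called lower (adjusted p = 0.000832, 0.0103 and 0.0253). B3galt2, also among the genes that fell most with thapsigargin, was at -0.070 ± 0.16 in calcium-free medium (0.931). Its calcium-free library was above the same-numbered control in 2 pairs and below it in 2.

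The 8 genes higher in calcium-free medium with the block were B3galt1, B3galt6, B4galt1, Galnt10, Slc35a3, Slc35g1, St3gal1 and St8sia1, with log2 fold changes from 0.11 to 0.22. St3gal1 was at 14.6, 15.5, 17.0 and 14.0 CPM in calcium-free medium and at 13.4, 12.6, 14.0 and 13.0 CPM in control (0.20, adjusted p = 0.0181 with the block). B3galt6 was at 14.6, 14.8, 14.7 and 15.0 CPM in calcium-free medium and at 13.3, 13.5, 12.7 and 13.5 CPM in control (0.16, 0.0429 with the block). Every calcium-free library of B3galt6 was above every control library, while in St3gal1 the highest control library reached the lowest calcium-free one. The lower genes were Galnt4, Slc35b3, B4galt5, Slc35d1, Slc35b4 and St6gal1, the last at -0.12 (0.0145). Without the libraries numbered 4 there were 6 higher and 6 lower, where 10.5% and 5.16% of all genes were called. Compared with the block, this setting lacked Slc35a3, St8sia1 and Slc35b3 and added Slc35a4 as lower (0.0397). Over all 12 libraries without the block, the pathway lists had few calls in calcium-free medium (1.55% of all genes lower, 3.78% higher). Gmppa, a regulator of GDP-mannose synthesis, was lower at -0.20 ± 0.045 (0.0245). The Golgi proteins Trip11 and Golga3 were higher at 0.38 ± 0.063 and 0.22 ± 0.056 (0.00526 and 0.0449). With the block, 7 genes of Golgi structure, 3 of glycosaminoglycan synthesis, 2 of O-GalNAc extension and 2 of O-mannose glycosylation were higher (10.4% of all genes). Lower were 2 of nucleotide sugar synthesis and 1 each of N-glycan processing, O-GalNAc extension, glycosphingolipid synthesis, glycosaminoglycan synthesis and O-mannose glycosylation (7.01% of all genes).

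The difference between the treatments was tested directly, with thapsigargin set against calcium-free medium. It gave 22 lower and 4 higher genes in the set, where 13.2% of all genes were lower and 14.6% higher. The libraries of both groups did not overlap for 20 lower and 3 higher genes, against 13.4% and 14.9% of all genes. The median log2 fold change was -0.15 over the 69 genes and -0.024 over all genes. This comparison shares its thapsigargin libraries with the comparison against control, so it does not stand as independent support. Of the 24 genes lower with thapsigargin than in control, 20 were also lower than in calcium-free medium. The other 4, B4galt2, B4galt6, St3gal3 and St6gal1, were not called, with log2 fold changes of -0.12, -0.067, -0.084 and -0.12 (adjusted p = 0.106, 0.489, 0.14 and 0.307). The block called B4galt2 (0.00911) and St6gal1 (0.00595) of these 4 lower.

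B4galt5 differed by -1.01 ± 0.10 (log2, adjusted p = 4.33e-05), Slc35d1 by -0.69 ± 0.15 (0.00411) and Slc35b4 by -0.63 ± 0.036 (1.59e-06). In these 3 genes all thapsigargin libraries were below all calcium-free libraries. B3galt2 differed by -0.55 ± 0.16 (0.0245), a call lost without thapsigargin 3 or 4 or calcium-free 1, 2 or 3 (0.0536 to 0.0738). Galnt7 (-0.43 ± 0.047, 6.4e-05) and Slc35a3 (-0.40 ± 0.054, 0.00022) followed. Galnt16 and St8sia2 were lower here without a call against control. St8sia2 was at 31.1, 32.7, 32.8 and 34.3 CPM with thapsigargin and at 33.4, 38.8, 37.2 and 43.7 CPM in calcium-free medium (-0.23 ± 0.075, 0.0406), with overlapping groups. The St8sia2 call ended without library 1 or 3 of control, 1, 2 or 3 of thapsigargin, or 2, 3 or 4 of calcium-free medium (0.0519 to 0.113). Galnt16 was at -0.15 ± 0.051 (0.0403), a call lost without control 1 or 2, any thapsigargin library, or calcium-free 2 or 3 (0.0528 to 0.117).

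The 4 genes higher with thapsigargin than in calcium-free medium had different levels in control. Slc35b3 was at 12.3, 14.0, 14.7 and 13.1 CPM with thapsigargin and at 11.7, 9.26, 7.66 and 9.99 CPM in calcium-free medium (0.48 ± 0.11, adjusted p = 0.00509). Galnt4 was at 42.1, 38.8, 40.0 and 36.4 CPM with thapsigargin and at 32.7, 34.3, 30.4 and 27.8 CPM in calcium-free medium (0.33 ± 0.068, 0.0034). In both genes the thapsigargin and control groups overlapped, and the calcium-free libraries were the low ones. Slc35e2 was at 24.4, 23.5, 24.3 and 26.6 CPM with thapsigargin and at 21.2, 20.0, 18.4 and 18.8 CPM in calcium-free medium (0.33 ± 0.057, 0.000993). Here the calcium-free and control groups overlapped, and the thapsigargin libraries were the high ones. Slc35c1 was at 0.22 ± 0.071 (0.0345), a call lost without thapsigargin 1, 2 or 3 or calcium-free 2, 3 or 4 (0.058 to 0.104). St6galnac4, at -0.15 ± 0.048 (0.0402), lost its call without control 2, any thapsigargin library, or calcium-free 3 or 4 (0.0548 to 0.12), and Slc35b2, at -0.15 ± 0.039 (0.0151), without thapsigargin 3 or calcium-free 4 (0.0527 and 0.0629). With the replicate block, 37 genes were lower and 4 higher, where 26.9% and 22.4% of all genes were called, and without the libraries numbered 4, 28 were lower and 5 higher, where 19.4% and 21.7% of all genes were called. The block kept all 26 calls and added B3galt5, B4galt1, B4galt2, B4galt3, B4galt4, Galnt10, Slc35a2, Slc35f1, Slc35f3, Slc35g1, St3gal4, St6gal1, St6galnac3, St6galnac5 and St8sia1, all lower. Leaving out the libraries numbered 4 ended the call of St6galnac4 (0.107). It added Galnt18 as higher, and B3galt5, B4galt4, Slc35f1, Slc35g1, St6galnac3, St6galnac5 and St8sia1 as lower. Without a filter, Galnt16, Slc35b2, Slc35c2, Slc35f5, St6galnac4, St6galnac6 and St8sia2 were not called (0.0575 to 0.203), and upper quartile scaling ended the calls of Slc35c1 (0.0511) and St6galnac4 (0.0539).

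Promoter windows of 55 of the 69 genes were in the RefSeq table, 19 of them of genes lower with thapsigargin. The windows of the set held more G and C than those of all genes, with a median of 63.5% against 52.7%, and the windows of the genes lower with thapsigargin had a median of 64.7%. Each motif was searched on both strands. The Golgi stress element ACGTGGC was in 0 of the 19 genes that were lower and in 2 of the other 36, Slc35c1 and Slc35e3, against 2.95% of all genes. The ER stress element, a CCAAT box and a CCACG box with a spacer, and the unfolded protein response element TGACGTGG were in 0 of the 55, against 0.137% and 0.714% of all genes. The EGR site GCGNGGGCG was in 6 of the 19 (B4galt2, B4galt5, Galnt11, Galnt17, Slc35a5 and St3gal5) and in 5 of the other 36, against 6.27% of all genes. The cyclic AMP response element TGACGTCA was in 1 of the 19 (Galnt11) and 1 of the 36 (2.03% of all genes), the AP-1 site TGANTCA in 1 and 2 (8.97%), and the E-box TCACGTGA in 1, Slc35a5, and 0 (1.12%). The EGR site is itself rich in G and C, as the windows are. These are matches of letters in a window of fixed length.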

How the data were processed

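Per the labels' protocols, poly-A RNA was enriched and made into stranded libraries, and no molecular identifiers are described. The submitters' processing notes name bcl2fastq 2.20.0.422 and cutadapt 1.17, then STAR 2.7.2b, featureCounts 1.6.4 and Subread, and the genome GRCm39. The sources used here do not give their order, options or strand setting. The deposited table gives expected counts per gene beside exon lengths and positions. In each library 14.2% to 15.9% of these counts had a fraction, and all were rounded before modelling.

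CPM was computed from the unrounded counts and TMM-normalised library sizes. The test was the quasi-likelihood F-test of edgeR 4.0.16 (R 4.3.3), robust, with TMM scaling, filterByExpr (minimum count 10) and a group mean for each condition over all 12 libraries. It covered 17077 genes, with all 69 of the set among them. P-values were adjusted by Benjamini-Hochberg over all genes in each of 3 contrasts, and a gene was called under 0.05. The SE is the log2 fold change divided by the root of the test statistic. Where values stand unnamed in parentheses, a ± marks log2 fold change and SE, and a lone value is an adjusted p unless it carries a sign or is named a fold change. Lists are described by counts and medians, without a test.

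Alternatives were DESeq2 1.42.0, upper quartile scaling, no filter, each library left out, all libraries numbered 4 left out, and a replicate block. The sample titles give the groups the same numbers 1 to 4. Across genes, the deviations of same-numbered libraries from their group means had r of 0.159 to 0.836, all above 0.1, and the numbers were entered as a block. The highest were those of replicate 4, at 0.814 to 0.836. The other numbers had r of 0.159 to 0.392 when equal and 0.238 to 0.412 when different. Their r was thus no higher for equal numbers, so a pairing of libraries is not shown beyond replicate 4. Counts of replicate libraries differed beyond sampling noise in each pair (chi-square over its degrees of freedom 1.66 to 46.0). By Xist and Y-linked levels, the libraries numbered 4 were of female cells and all others of male cells, hence of other mice. As separate mice are not stated for replicates 1 to 3, p-values measure the spread between these samples.

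The members and lists were chosen with earlier results of these data known. Named genes were, for each contrast, the 12 called members with the smallest p, the 2 members of each family with the highest CPM per kb, the genes on either side of the count minimum, and in each pathway list the 2 genes of smallest p in a test over the 3 groups; 1 of these is not reported here. Other members are given where a family is described in full. Gmppa, Trip11 and Golga3, and the genes overlapping a member, were chosen after their values were seen. Promoter windows came from RefSeq (GRCm38.p6), matched by gene identifier for 55 of the 69 genes. Marker lists covered astrocytes, microglia, the oligodendrocyte lineage, neurons, vascular cells and fibroblasts, and proliferation.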

Additional observations from a re-analysis of the deposited data

Results flagged for a closer look

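Of 138 groups of 4 libraries tested over 46 named genes, 14 had a library far from the other 3, all of them replicate 4. Such a gap arises by chance in about 1 in 20 groups. Among the transferases, the replicate 4 library stood above the other 3 of its group for B4galt5 in calcium-free medium (52.4 CPM, others 40.5 to 42.3), B3galt6 with thapsigargin (15.7 CPM, others 13.6 to 13.7), St6galnac5 in calcium-free medium (84.2 CPM, others 59.6 to 62.1), and St8sia1 in calcium-free medium (48.2 CPM, others 32.3 to 34.1) and in control (44.3 CPM, others 30.2 to 31.6). It stood below for Galnt11 in calcium-free medium (58.0 CPM, others 59.3 to 59.4).

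Of the carriers, Slc35d1 was high in replicate 4 with thapsigargin (12.1 CPM, others 8.34 to 8.93) and in control (22.2 CPM, others 15.7 to 16.5), and Slc35f1 was low with thapsigargin (160.4 CPM, others 189 to 193). In the pathway lists, replicate 4 was high for C1galt1c1 with thapsigargin (22.6 CPM, others 19.8 to 20.0) and Pomgnt1 with thapsigargin (78.6 CPM, others 77.0 to 77.1). It was low for Gcnt4 in calcium-free medium (53.3 CPM, others 67.8 to 69.9) and in control (44.5 CPM, others 54.5 to 55.5), and for Neu3 in control (4.94 CPM, others 5.98 to 6.19).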

How the results depend on the processing

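No gene of the set or pathway gene named by the stated rule that was called without the block changed direction under the alternatives run. Of those called with the block alone, St8sia1 in calcium-free medium ran from -0.039 to 0.26 over all settings and Slc35a1 with thapsigargin versus control from -0.27 to 0.0031. For thapsigargin versus control, the set had 23 lower with DESeq2, 26 with upper quartile factors and 17 without a filter, against 24, and 19 to 26 with a library left out. The higher count of 1 became 3 without the libraries numbered 4 and was 1 to 2 with a library left out (2 without thapsigargin 4). The median of -0.13 was -0.11 with DESeq2, -0.16 with upper quartile factors, -0.091 without a filter, and -0.16 to -0.12 with a library left out. For calcium-free medium versus control, DESeq2 gave 2 lower, leaving out a library 1 to 2, and leaving out the libraries numbered 4 gave 6 lower and 6 higher. For thapsigargin versus calcium-free medium, the median of -0.15 was -0.11 without a filter, -0.091 without the libraries numbered 4, and -0.15 to -0.12 with a library left out, and 15 genes were lower without a filter, against 22.

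With the replicate numbers as a block, thapsigargin versus control had 2 higher and 35 lower, calcium-free medium versus control 8 higher and 6 lower, and thapsigargin versus calcium-free medium 37 lower and 4 higher. Medians with the block were -0.13, -0.0080 and -0.15. Over all genes, the block called 3920 higher and 4817 lower with thapsigargin versus control, against 2800 and 2531. The block ended no call of the 69 genes, and the calls it added are given beside the results. Among the individually named pathway genes it also called Gcnt4 (log2 fold change 0.31) and Pomgnt1 (-0.10) in calcium-free medium and Neu3 (0.23) between the treatments. The cause of these differences was not tested. Precision was that of counting error plus a spread estimated over all 12 libraries in 1 fit, with 4 libraries in each group. For the 7 genes under 1 CPM the SE of 0.16 to 0.32 is of the size of most changes in the set.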
